A study of Homo sapiens with 6 samples.

Results

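The genes described here encode collagens, laminins and a fixed set of matrix glycoproteins, basement membrane components and collagen-modifying enzymes. They were chosen by gene symbol: every collagen chain gene, every laminin chain gene, and 18 further genes named singly. The choice was made with earlier results of these data known. Of the 14959 genes in the deposited table, 55 met this rule, of which 29 were collagen genes, 10 were laminin genes and 16 were other genes. Measurements came from UM-SCC1, a human cell line established from a squamous carcinoma of the head and neck. The cells received miR-204-5p mimics by transfection (3 libraries), which are short synthetic duplex RNAs that cells use like the mature miRNA. Control cells received control mimics (3 libraries), and the series' design text calls the experiments of each group independent. RNA from both groups was sequenced 48 h after transfection. No allele or other agent separates the groups, and the mimic dose is not given in the sources used here. Levels are given as FPKM, fragments mapped, per kilobase of transcript and per 1e6 fragments of the library, so that genes of different length can be set side by side.

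Collagens are trimers of chains wound into a triple helix, and each family member builds a different structure: type I collagen forms fibrils, type IV collagen forms the network of basement membranes, and types VII and XVII fix squamous epithelium to the tissue beneath it. Laminins are cross-shaped trimers of an alpha, a beta and a gamma chain, which bind epithelial integrins on one side and nidogen, perlecan and agrin on the other. Squamous epithelial cells make their own laminins and type XVII collagen for hemidesmosomes, the rivets that hold keratin filaments to the basement membrane, whereas fibrillar collagens in tissue come mostly from fibroblasts.

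A miRNA pairs with the 3'UTR of an mRNA mainly through its seed, bases 2 to 8. The mature strand of miR-204-5p, encoded on chromosome 9 (chr9:70810031-70810052, minus strand, RefSeq, GRCh38.p14), is shown with the seed in capitals because it is the molecule that was added.
miR-204-5p: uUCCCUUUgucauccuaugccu
Matches to this seed were sought on the transcript strand of every gene's longest 3'UTR annotated by GENCODE 29 (GRCh38). The forms were AAAGGGAA (8mer), AAAGGGA without the last A (7mer-m8) and AAGGGAA without the first A (7mer-A1), each place being counted once under its longest form. The matches of the members with a mean level of at least 1 FPKM are shown with their flanking bases, 5′ to 3′, with the match in capitals.
COL17A1, 7mer-m8, exon 56, chr10:104031498-104031504, minus strand: ggaaggaatAAAGGGAgaagaggga
LAMC1, 7mer-m8, exon 28, chr1:183143778-183143784, plus strand: ttttctagcAAAGGGAtaaaactta
NID1, 7mer-m8, exon 20, chr1:235976695-235976701, minus strand: gatctaattAAAGGGAtcattgcca
THBS2, 7mer-A1, exon 23, chr6:169217454-169217460, minus strand: atggagttgAAGGGAAtactgtgca
HSPG2, 7mer-A1, exon 97, chr1:21822640-21822646, minus strand: aggggctgtAAGGGAAggcccaccc
PLOD2, 7mer-A1, exon 20, chr3:146070191-146070197, minus strand: gtagttactAAGGGAAcacacaaag
FN1, 7mer-A1, exon 45, chr2:215360478-215360484, minus strand: attgcctgcAAGGGAAataaaaatg
SPARC, 8mer, exon 10, chr5:151663123-151663130, minus strand: gaggtgggcAAAGGGAAgtaacagac
THBS1, 8mer, exon 22, chr15:39597808-39597815, plus strand: tatgaaaacAAAGGGAAaaacactga
THBS1, 8mer, exon 22, chr15:39599150-39599157, plus strand: ctaagccctAAAGGGAAatccaaaat
THBS1, 7mer-m8, exon 22, chr15:39595999-39596005, plus strand: agaagcaggAAAGGGAgacaaagac
LOXL2 also held a 7mer-m8 match, and among members below 1 FPKM so did COL8A1 and COL6A6. A match is a description of letters and was not tested for binding.

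With miR-204-5p mimics, 16 of the 55 matrix genes fell, 11 rose and 28 did not pass the test (limma on log2(FPKM + 1), Benjamini-Hochberg adjusted p under 0.05 over all genes). Thus 49.1% of the matrix genes were called, against 40.8% of all genes in the table. Over all genes 16.8% fell and 23.9% rose, so rises outnumbered falls in the whole table while falls outnumbered rises among the matrix genes. The 3 mimic libraries and the 3 control libraries did not overlap for 33 matrix genes (60.0%), against 53.6% of all genes. The median log2 fold change was 0.00 over the matrix genes, with a range from -1.27 to 0.80, and 0.03 over all genes.

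A squamous line expresses only part of this gene family. Of the 55 members, 32 reached a mean of 1 FPKM over the 6 libraries, and 23 of these (71.9%) were called, 14 lower and 9 higher, against 47.8% of all genes at that level. Among the 23 members below 1 FPKM, 4 were called (17.4%), against 602 of the 3455 genes of the table at that level. Of the 74 family names listed for the groups below, 19 were not among the analysed rows, COL3A1, NID2, FBN2, LAMB4 and LAMC3 among them.

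**Figure D1:**
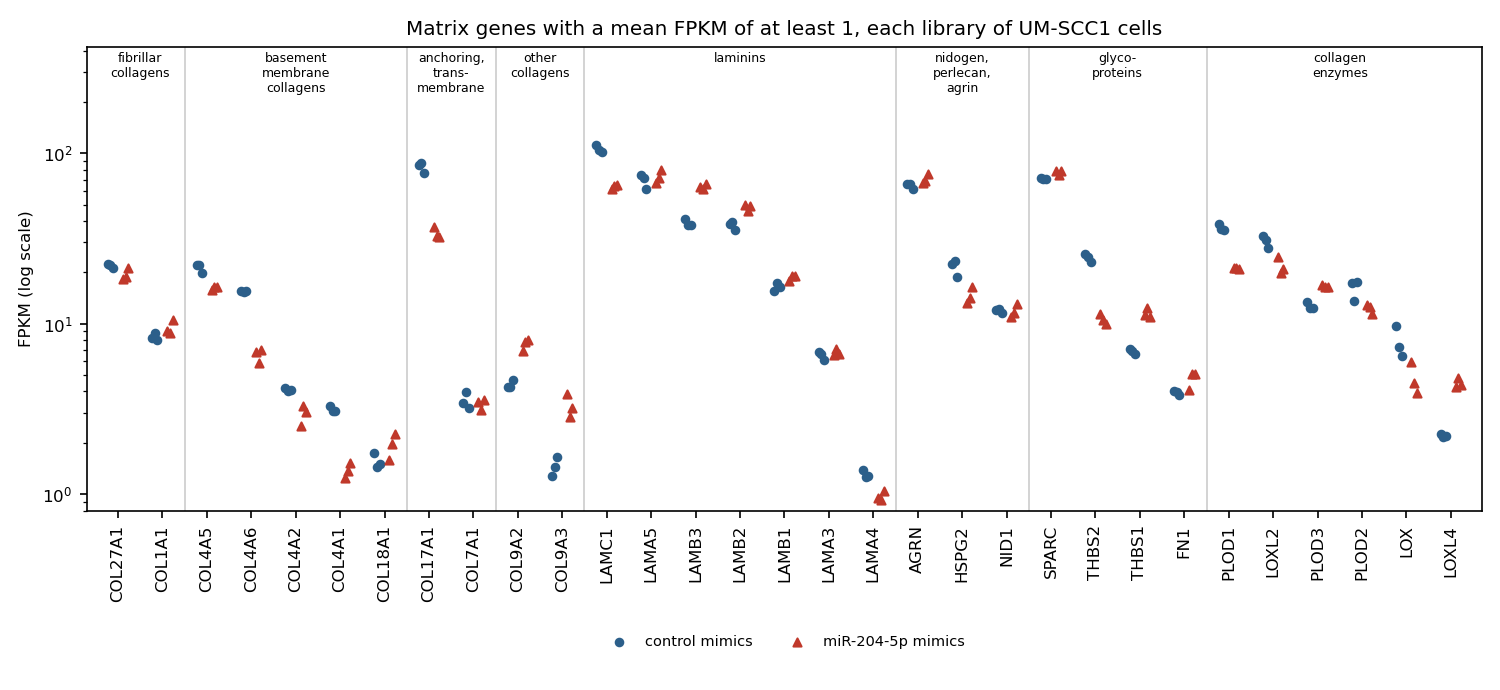
FPKM (log axis) of 31 matrix genes with a mean of at least 1 FPKM, in each library, ordered by group and then by mean level; circles are the 3 control mimic libraries and triangles the 3 miR-204-5p mimic libraries. COL17A1 lies between 76.6 and 87.2 FPKM in the controls and between 32.1 and 36.8 FPKM with the mimics, and LAMB3 moves in the opposite direction.

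The cells matched their label as epithelium. The 11 squamous epithelial markers summed to 1719 to 1925 FPKM with miR-204-5p mimics and 1769 to 1828 FPKM with control mimics, all 11 being at or above 1 FPKM on average. The sums hide opposite moves, as TP63, KRT19, KRT14, KRT5, DSP and EPCAM (6) fell with the mimics and CDH1, KRT6A, KRT18 and KRT8 (4) rose. The share called was 90.9%, against 40.8% of all genes and 47.8% of genes with a mean of at least 1 FPKM. Mean levels with mimics against controls were 287 against 554 FPKM for KRT19 and 27.4 against 55.9 FPKM for TP63. They were 597 against 317 FPKM for KRT18 and 275 against 119 FPKM for KRT8. The part of these markers in the differences of the matrix genes was not tested. Fibroblast markers, 6 of which were measured, summed to 10.9 to 12.3 FPKM with miR-204-5p mimics and 9.10 to 10.1 FPKM with control mimics, and COL1A1 carried most of that sum. Of the 6, COL1A2 and PDGFRB rose at levels below 1 FPKM. LUM and POSTN, defining genes of fibroblast matrix, stayed under 0.1 FPKM, and VIM lay between 0.522 and 1.34 FPKM. The 3 endothelial markers summed to 0.590 to 0.767 FPKM with miR-204-5p mimics and 0.443 to 0.502 FPKM with control mimics, VWF among them being called higher (limma's adjusted p = 0.0234). The leukocyte gene PTPRC was at 0.153 to 0.546 FPKM against 0.120 to 0.150 FPKM and was not called. Both lay higher in every mimic library, and their part in the differences of the matrix genes was not tested. Implied depth was 13.1 to 16.4 M (1e6) fragments a library, and rank correlations over all genes were 0.9899 to 0.9908 within groups and 0.9733 to 0.9756 between them. Fewer cells of a type and less RNA per cell cannot be told apart in bulk RNA.

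COL17A1, a transmembrane collagen of hemidesmosomes that ties keratinocytes to the basement membrane, was the most abundant collagen gene and showed the largest fall of any member on the log2(FPKM + 1) scale. COL17A1 (chr10:104031286-104086002, 56 exons) stood at 36.8, 32.6 and 32.1 FPKM with miR-204-5p mimics and at 85.1, 87.2 and 76.6 FPKM with control mimics. Every mimic library lay far below every control library, and the mean was 2.45-fold lower, 33.8 ± 2.61 against 83.0 ± 5.59 FPKM (SD, n = 3 each). The log2 fold change was -1.27 with an SE (standard error) of 0.0715 (limma's adjusted p = 8.86e-05), and its 3'UTR holds the 7mer-m8 match shown above. COL7A1, which forms the anchoring fibrils under the same junctions, stood at 3.48, 3.13 and 3.58 FPKM against 3.41, 3.97 and 3.19 FPKM, and the groups overlapped. Its log2 fold change was -0.04, with a 95% interval from -0.24 to 0.17. COL23A1, the third measured gene of this group, was at 0.374 FPKM or less and not called.

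Type IV collagen is the scaffold of basement membranes, and 4 of its 5 measured chain genes fell and none rose, the fifth being COL4A4 near 0. Over all genes, 16.8% were called lower and 23.9% higher. COL4A6 was at 6.86, 5.86 and 7.0 FPKM with miR-204-5p mimics and at 15.5, 15.3 and 15.6 FPKM with control mimics. Its neighbour COL4A5 was at 15.8, 16.5 and 16.4 FPKM against 22.0, 22.0 and 19.7 FPKM. For both X-linked chains the groups did not overlap, but COL4A6 was 2.35-fold lower on average (log2 fold change -1.12 ± 0.0684 SE, limma's adjusted p = 0.000106) and COL4A5 only 1.31-fold lower (-0.37 ± 0.0547 SE, adjusted p = 0.00255).

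The same unequal fall was seen in the pair of type IV chains that most basement membranes use. COL4A1 was at 1.24, 1.37 and 1.53 FPKM with miR-204-5p mimics and at 3.30, 3.09 and 3.06 FPKM with control mimics. COL4A2 was at 2.50, 3.29 and 3.01 FPKM against 4.18, 4.05 and 4.08 FPKM. Both pairs of groups were apart, with log2 fold changes of -0.80 for COL4A1 (SE 0.0688, limma's adjusted p = 0.000320) and -0.38 for COL4A2 (SE 0.0856, adjusted p = 0.0131). The RefSeq starts of COL4A1 and COL4A2 lie head to head on chromosome 13, 127 bases apart, and those of COL4A5 and COL4A6 1416 bases apart on chromosome X. Within each library the COL4A1/COL4A2 ratio was 0.417 to 0.509 with miR-204-5p mimics and 0.751 to 0.789 with control mimics. The COL4A6/COL4A5 ratio was 0.356 to 0.435 against 0.695 to 0.793, so neither ratio overlapped between groups. The transcript listed for COL4A2 has 7.56% of the length of its longest coding transcript, and how that affects its FPKM was not tested. COL18A1, whose product carries endostatin, stood at 1.58, 1.97 and 2.26 FPKM against 1.75, 1.45 and 1.5 FPKM with overlapping groups, a log2 fold change of 0.19 and a 95% interval from -0.05 to 0.43. COL4A4 was under 0.1 FPKM in every library.

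Laminin chains moved in both directions. LAMB3, the beta chain of the epithelial laminin of hemidesmosomes, was at 63.0, 61.8 and 65.7 FPKM with miR-204-5p mimics and at 40.9, 37.7 and 38 FPKM with control mimics. LAMA3, the alpha chain of the same trimer, was at 6.55, 7.05 and 6.64 FPKM against 6.79, 6.66 and 6.14 FPKM. Thus the beta chain rose 1.63-fold with groups well apart (log2 fold change 0.70 ± 0.0458 SE, limma's adjusted p = 0.000138), and the alpha chain overlapped between groups and was not called, with a 95% interval from -0.10 to 0.18.

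LAMC1, the gamma chain shared by most laminins, showed the largest fall of a laminin gene. LAMC1 (chr1:183023460-183145592, 28 exons) was at 61.7, 64.4 and 64.9 FPKM with miR-204-5p mimics and at 111, 105 and 102 FPKM with control mimics. The groups were far apart, the mean was 1.66-fold lower (63.6 ± 1.71 against 106 ± 4.44 FPKM, SD, n = 3 each) and the log2 fold change was -0.72 (SE 0.0430, limma's adjusted p = 9.91e-05). LAMB2, a beta chain, was at 49.6, 46.1 and 49.2 FPKM against 38.2, 39.7 and 35.5 FPKM and rose (log2 fold change 0.35 ± 0.0530 SE, adjusted p = 0.00291). LAMB1, another beta chain, was at 17.8, 19.1 and 18.9 FPKM against 15.5, 17.2 and 16.4 FPKM. LAMA5, the main alpha chain of epithelial basement membranes, was at 66.8, 71.1 and 80.1 FPKM against 74.7, 72.0 and 61.5 FPKM. The LAMB1 groups were apart by a narrow margin and its rise of 0.17 (adjusted p = 0.0415) held in 5 of 13 alternative settings. It was lost without mimic replicate 2 (limma's adjusted p = 0.117) or 3 (0.102), without control replicate 1 (0.112) or 3 (0.0911), and with the libraries scaled to equal sums (0.124). LAMA5 overlapped between groups, with a log2 fold change of 0.07 and a 95% interval from -0.16 to 0.29.

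LAMA4, an alpha chain better known from vessels, was low at 0.943, 0.917 and 1.04 FPKM against 1.39, 1.26 and 1.28 FPKM and fell by 0.23 on the log2 scale (limma's adjusted p = 0.0153). LAMA1 and LAMA2 were at 0.641 FPKM or less in every library and were not called. The summed level of the 29 collagen genes was 110 ± 2.91 against 171 ± 7.58 FPKM, and 76.0 ± 4.03 against 88.3 ± 2.00 FPKM without COL17A1. The collagen sums did not overlap, with or without COL17A1.

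Because chains of a trimer are needed together, ratios between chain genes were taken within each library, where scaling between libraries has no effect. The LAMA5/LAMC1 ratio was 1.08, 1.10 and 1.24 with miR-204-5p mimics and 0.675, 0.688 and 0.604 with control mimics, passing from more LAMC1 to more LAMA5. LAMB1/LAMC1 was 0.288 to 0.296 with miR-204-5p mimics and 0.140 to 0.165 with control mimics. Both ratios were apart between groups, as was LAMA3/LAMB3 (0.101 to 0.114 against 0.162 to 0.177), whereas LAMA5/LAMB1 overlapped. No test was applied to the ratios.

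**Figure D2:**
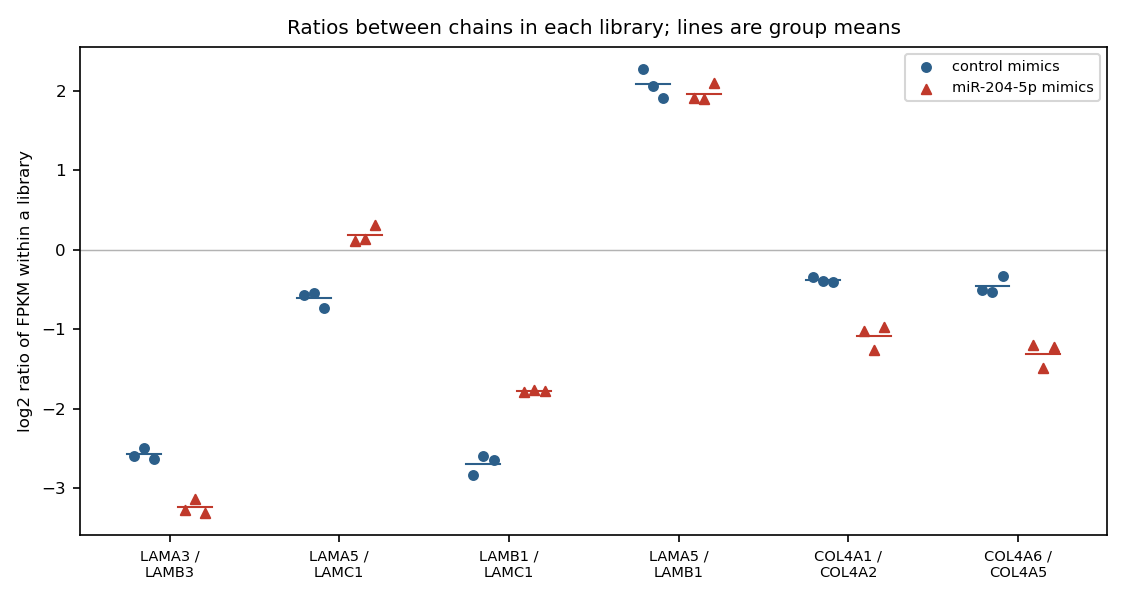
Log2 ratio of the FPKM of 2 chain genes within each library (vertical axis) for 6 pairs; circles are control mimic libraries, triangles miR-204-5p mimic libraries, and short lines the group means. LAMA5/LAMC1 changes sign from -0.61 in the controls to 0.19, and LAMA5/LAMB1 overlaps.

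Of the proteins that link laminin to collagen IV, 1 of 3 fell. This is 33.3% called, against 40.8% of all genes and 47.8% of genes with a mean of at least 1 FPKM. HSPG2, which encodes perlecan, was at 13.2, 14.2 and 16.3 FPKM with miR-204-5p mimics and at 22.5, 23.3 and 18.8 FPKM with control mimics. The groups did not overlap, and the log2 fold change was -0.53 (SE 0.102, limma's adjusted p = 0.00701). Exons of LDLRAD2 overlap those of HSPG2 on the opposite strand over 2121 bases, and whether the counting used strand is not given in the sources used here. AGRN, which encodes agrin, was the most abundant of the group at 66.9, 68.4 and 75.9 FPKM against 65.9, 65.6 and 62.0 FPKM. Its groups were just apart, but the test was not passed (log2 fold change 0.12, 95% interval -0.01 to 0.26, adjusted p = 0.129). NID1, the bridge between laminin and collagen IV, was at 10.9, 11.6 and 13.1 FPKM against 12.0, 12.2 and 11.6 FPKM, with a log2 fold change of -0.01 and a 95% interval from -0.18 to 0.16. NID1 carries the same AAAGGGA as COL17A1 and LAMC1.

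Fibrillar collagens were mostly scarce, as 6 of the 8 measured were below 1 FPKM. COL27A1, the most abundant, was at 18.3, 18.8 and 21.3 FPKM with miR-204-5p mimics and at 22.4, 22.1 and 21.2 FPKM with control mimics. COL1A1, the main chain of type I collagen, was at 9.02, 8.85 and 10.5 FPKM against 8.20, 8.85 and 8.04 FPKM. Neither was called and both overlapped, with log2 fold changes of -0.16 for COL27A1 (limma's adjusted p = 0.0811) and 0.16 for COL1A1 (0.149). COL27A1 passed the test without mimic replicate 3 (log2 fold change -0.23, adjusted p = 0.0150). COL1A2, the partner chain of COL1A1, rose from 0.322 ± 0.0297 to 0.605 ± 0.0177 FPKM (SD, n = 3 each; limma's adjusted p = 0.00245), and stayed below 1 FPKM in every library. The summed fibroblast markers given above were also higher with the mimics, but that sum includes COL1A1 and COL1A2 themselves. Any part of fibroblast RNA in the COL1A2 rise was not tested. The other 5 fibrillar genes, COL11A2, COL2A1, COL24A1, COL5A1 and COL5A2, were at 0.407 FPKM or less and not called.

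Among the beaded filament, network-forming and fibril-associated collagens, 3 of 12 rose and 1 fell. This is 33.3% called, against 40.8% of all genes, and 10 of the 12 had a mean below 1 FPKM. The chains of type IX collagen, a fibril-associated collagen best known from cartilage, were the only ones of the group above 1 FPKM. COL9A2 was at 6.89, 7.84 and 8.06 FPKM with miR-204-5p mimics and at 4.24, 4.24 and 4.67 FPKM with control mimics. COL9A3 was at 3.88, 2.83 and 3.19 FPKM against 1.28, 1.44 and 1.64 FPKM. Both were apart between groups, with log2 fold changes of 0.67 (SE 0.0743, limma's adjusted p = 0.000805) and 0.80 (SE 0.107, adjusted p = 0.00168), and COL9A3 had the largest rise of any member on this scale. At lower levels COL12A1 rose from 0.325 ± 0.0214 to 0.839 ± 0.0706 FPKM and COL8A2 fell from 0.752 ± 0.0235 to 0.511 ± 0.0677 FPKM (SD, n = 3 each; adjusted p = 0.000576 and 0.0152). The transcript listed for COL12A1 has 26.7% of the length of its longest coding transcript. The other 8 genes, which include the type VI collagen genes COL6A1, COL6A2, COL6A3 and COL6A6, were at 0.445 FPKM or less and not called. COL6A2 was listed at 0 in control replicate 2 and COL28A1 in mimic replicate 1.

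**Figure D3:**
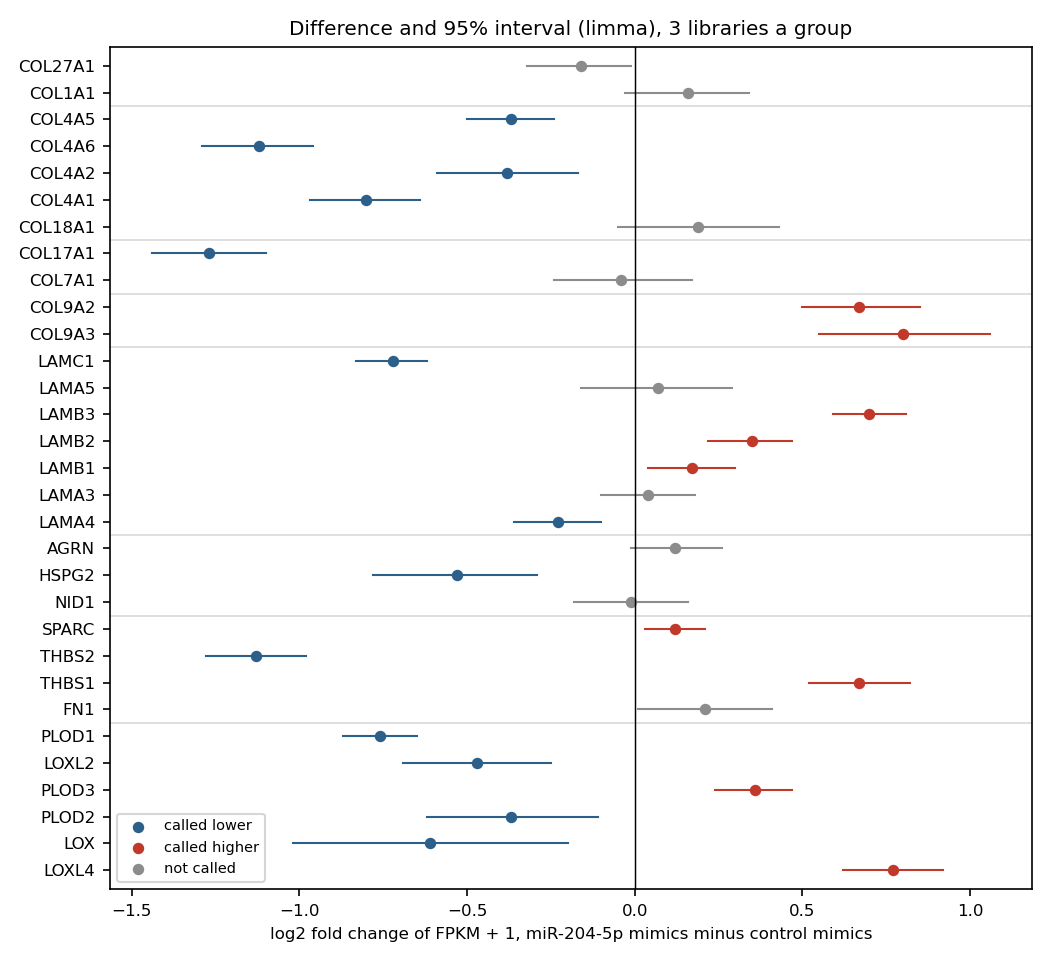
Log2 fold change of FPKM + 1, miR-204-5p mimics minus control mimics (horizontal axis), with its 95% interval from limma, for 31 matrix genes with a mean of at least 1 FPKM; lines part the groups, and colour marks genes called lower, called higher or not called. All 4 called type IV collagen genes lie left of 0, and laminins lie on both sides.

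Within the thrombospondins, secreted glycoproteins that bind matrix and cell surface receptors, the members moved in opposite directions. THBS2 was at 11.4, 10.5 and 9.99 FPKM with miR-204-5p mimics and at 25.7, 24.6 and 23.1 FPKM with control mimics. THBS1 was at 11.2, 12.4 and 10.9 FPKM against 7.05, 6.89 and 6.59 FPKM. The levels of THBS2 were thus well above those of THBS1 in control cells and close to them with the mimics. THBS2 fell 2.30-fold (log2 fold change -1.13 ± 0.0622 SE, limma's adjusted p = 8.11e-05) and THBS1 rose 1.68-fold (0.67 ± 0.0625 SE, adjusted p = 0.000435). The transcript listed for THBS1 has 7.49% of the length of the longest one and does not contain the 3 seed matches shown above. How that length affects the FPKM of THBS1, and so its level beside THBS2, was not tested. Exons of FSIP1 overlap those of THBS1 on the opposite strand over 448 bases.

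SPARC, a collagen-binding protein, was the most abundant of the 6 glycoprotein genes, at 78.4, 74.2 and 78.5 FPKM with miR-204-5p mimics and at 71.8, 70.2 and 70.2 FPKM with control mimics. The groups were apart, but the rise was 1.09-fold (log2 fold change 0.12, limma's adjusted p = 0.0373) and passed the test in 3 of 13 alternative settings. It was lost without mimic replicate 1 (adjusted p = 0.0911) or 3 (0.0919) and without control replicate 1 (0.0679), 2 (0.106) or 3 (0.0974). FN1, which encodes fibronectin, was at 4.10, 5.04 and 5.06 FPKM against 4.05, 3.99 and 3.80 FPKM. Its groups were apart without passing the test (log2 fold change 0.21, adjusted p = 0.0912), which it passed without mimic replicate 1 (0.29, adjusted p = 0.0193). TNC, which encodes tenascin-C, fell from 0.361 ± 0.0861 to 0.112 ± 0.0419 FPKM (SD, n = 3 each; adjusted p = 0.00879), and FBN1, the fibrillin gene, was below 1 FPKM and not called.

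Of the 7 enzymes that hydroxylate collagen lysines or cross-link collagen, 6 were called, 4 lower and 2 higher. This is 85.7% called, against 40.8% of all genes and 47.8% of genes with a mean of at least 1 FPKM. Over all genes, 16.8% were called lower and 23.9% higher. PLOD1, a lysyl hydroxylase that acts on the helical part of collagen, was at 21.3, 21.3 and 20.9 FPKM with miR-204-5p mimics and at 38.6, 36.0 and 35.2 FPKM with control mimics. PLOD2, which hydroxylates the telopeptides, was at 12.9, 12.5 and 11.4 FPKM against 17.4, 13.5 and 17.6 FPKM. PLOD3, which also adds sugars to hydroxylysine, was at 16.9, 16.3 and 16.4 FPKM against 13.4, 12.3 and 12.3 FPKM. The family thus split, with PLOD1 falling by 0.76 on the log2 scale (SE 0.0448, limma's adjusted p = 9.72e-05), PLOD2 falling by 0.37 (SE 0.107, adjusted p = 0.0343) and PLOD3 rising by 0.36 (SE 0.0484, adjusted p = 0.00178). All 3 were apart between groups, though PLOD2 in control replicate 2 lay close to the mimic libraries. The PLOD2 call was lost without mimic replicate 1 (adjusted p = 0.0618), 2 (0.0782) or 3 (0.0988) and without control replicate 1 (0.102) or 3 (0.0984). The transcripts listed for PLOD1 and PLOD3 have 25.9% and 37.6% of the length of the longest coding transcript, and exons of ZNHIT1 overlap those of PLOD3 on the opposite strand over 429 bases.

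Lysyl oxidases, which start the cross-links between collagen or elastin molecules, split in the same manner. LOXL2 was at 24.5, 19.9 and 21.0 FPKM with miR-204-5p mimics and at 32.8, 30.9 and 27.7 FPKM with control mimics. LOX was at 5.92, 4.48 and 3.94 FPKM against 9.71, 7.31 and 6.47 FPKM. LOXL4 went the other way, at 4.27, 4.79 and 4.34 FPKM against 2.26, 2.17 and 2.19 FPKM. The groups were apart for all 3, with log2 fold changes of -0.47 for LOXL2 (SE 0.0917, limma's adjusted p = 0.00772), -0.61 for LOX (SE 0.172, adjusted p = 0.0300) and 0.77 for LOXL4 (SE 0.0630, adjusted p = 0.000279). LOX spread most among replicates, and its call was lost without mimic replicate 2 (adjusted p = 0.0896) or 3 (0.0871) or without control replicate 1 (0.0723) or 2 (0.0636). LOXL1 was below 1 FPKM in every library and not called. Exons of ENTPD4 overlap those of LOXL2 on the same strand over 120 bases, and exons of SRFBP1 those of LOX on the opposite strand over 138 bases.

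Members with a seed match did not move as a block. A match was present in 12 of 55 members (21.8%) and in 27.1% of the 14664 genes with an annotated 3'UTR. The 4 members whose longest form was a 7mer-A1 had log2 fold changes from -1.13 (THBS2) to 0.21 (FN1), and 3 of them fell. Of the 6 with a 7mer-m8, COL17A1, LAMC1 and LOXL2 fell, and NID1, COL8A1 and COL6A6 were not called. Both members with an 8mer rose, THBS1 in every alternative setting and SPARC in 3 of 13. The transcripts listed for THBS1 and COL8A1 do not contain the matches of these genes. Over all genes the median log2 fold change was -0.08 with an 8mer, -0.03 with a 7mer-m8, -0.00 with a 7mer-A1 and 0.06 with none. Of the 43 members without a match, 10 fell and 9 rose, COL4A6, COL4A1 and PLOD1 among those that fell. Over all genes, 1438 of 10691 without a match fell and 2906 rose, and 422 of 1261 with an 8mer fell and 168 rose. With a 7mer-m8, 368 of 1442 fell and 240 rose, and with a 7mer-A1, 283 of 1270 fell and 243 rose.

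**Figure D4:**
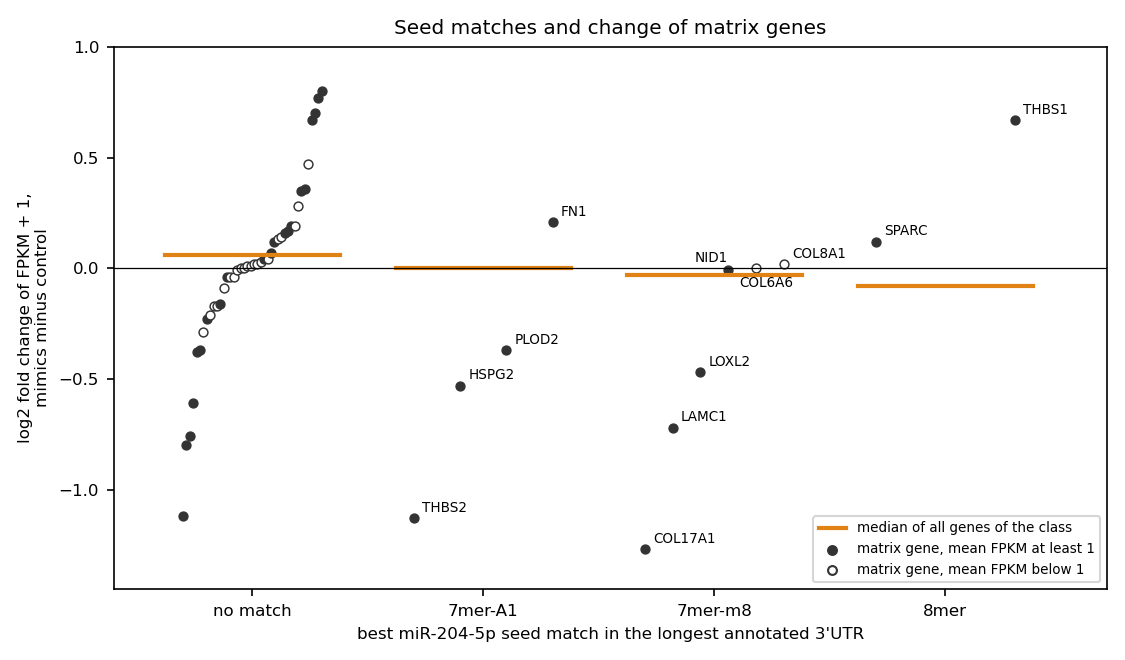
Log2 fold change of 54 matrix genes (vertical axis), by the longest miR-204-5p seed match in its longest annotated 3'UTR (horizontal axis); filled points have a mean of at least 1 FPKM, open points less, points within a class are spread in order of their value, and orange lines are medians over all genes of the class. COL17A1 and THBS2 are the lowest points with a match, while both genes with an 8mer lie above 0.

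Of the 23 measured genes that fold, secrete or trim procollagen, 7 rose, 2 fell and 14 were not called, with a median log2 fold change of 0.04. This is 39.1% called, near the 40.8% of all genes and below the 47.8% of genes with a mean of at least 1 FPKM. SERPINH1, the collagen chaperone HSP47, was at 36.9, 35.6 and 34.1 FPKM with miR-204-5p mimics and at 27.4, 26.6 and 28.3 FPKM with control mimics (log2 fold change 0.36, limma's adjusted p = 0.00119). P3H4, a partner of lysyl hydroxylase in the endoplasmic reticulum, rose by 0.35 (adjusted p = 0.0331), a call lost without mimic replicate 2 (0.103) or 3 (0.0961) or control replicate 1 (0.0965) or 2 (0.0984). The 2 that fell were COLGALT1, a collagen galactosyltransferase, at 29, 30.1 and 31.1 FPKM against 42.0, 38.9 and 41.6 FPKM (-0.43, adjusted p = 0.000703), and TLL1, a procollagen-trimming protease (-0.37, adjusted p = 0.00741).

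Of 19 matrix receptor genes, 7 fell, 6 rose and 6 were not called, which is 68.4% called against 40.8% of all genes and 47.8% of genes with a mean of at least 1 FPKM. ITGA2, a collagen-binding integrin alpha chain, fell most among those called. It was at 9.36, 9.98 and 9.36 FPKM with miR-204-5p mimics against 18.1, 18.6 and 17.2 FPKM (log2 fold change -0.84, limma's adjusted p = 9.77e-05). SDC1, the syndecan of epithelial cells, was at 96.1, 96.0 and 100 FPKM against 157, 149 and 152 FPKM (-0.64, adjusted p = 9.38e-05). The largest rises belonged to laminin receptors. BCAM, which binds laminin alpha-5, was at 81.2, 79.3 and 85.7 FPKM against 56.8, 61.9 and 57.8 FPKM (0.47, adjusted p = 0.000593). ITGA6, the alpha chain of the hemidesmosome integrin, was at 59.9, 66.6 and 64.7 FPKM against 48.5, 47.7 and 46.6 FPKM (0.41, adjusted p = 0.000934).

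Of 24 further matrix glycoprotein genes measured, 7 rose, 6 fell and 11 were not called, with a median log2 fold change of 0.01. The share called was 54.2%, against 40.8% of all genes and 47.8% of genes with a mean of at least 1 FPKM. The largest rises were those of CYR61 and CTGF, matricellular proteins. CYR61 was at 27.1, 25.6 and 23.2 FPKM with miR-204-5p mimics and at 7.34, 7.15 and 7.48 FPKM with control mimics (log2 fold change 1.66, limma's adjusted p = 3.09e-05). CTGF was at 3.15, 3.59 and 3.30 FPKM against 0.638, 0.883 and 0.522 FPKM (1.38, adjusted p = 0.000148). The largest falls were smaller: TGFBI was at 82.7, 73.5 and 66.5 FPKM against 93.6, 93.5 and 92.9 FPKM (-0.33, adjusted p = 0.0138), and MFGE8 fell by 0.40 (adjusted p = 0.0229), a call lost without mimic replicate 1 (0.0588) or 2 (0.0759) or control replicate 1 (0.0551) or 3 (0.0672).

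Calls for 23 of the 27 called members held in every alternative setting that tested them. The 4 that did not were LAMB1, SPARC, PLOD2 and LOX. With 3 libraries against 3, an exact two-sided permutation test of a single gene cannot go below 0.1, so the calls rest on the spread that limma shares over all genes.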

How the data were processed

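The 3 RNA-seq libraries (Illumina TruSeq, HiSeq X) of UM-SCC1 cells that received miR-204-5p mimics were compared with 3 that received control mimics, grouped by the sample titles. The authors deposited FPKM values, 1 per gene and library, with 1 listed transcript per gene. The submitters' processing notes name HISAT2, StringTie and hg38, without versions or roles. The authors' own fold changes, p-values and FDR in the same table were not used.

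FPKM values were analysed as deposited, without filter or further scaling, on log2(FPKM + 1), so fold changes of low genes are understated. The model of limma 3.58.1 (R 4.3.3, lmFit and trended eBayes, two-sided) was fitted over all 14959 genes with Benjamini-Hochberg adjustment, and genes with an adjusted p under 0.05 were called; the fit was tested on simulated data. Intervals are 95% intervals of limma. Other steps used Python 3.11.15, numpy 2.4.6 and pandas 2.3.3. Of the 55 listed transcripts all were found in GENCODE 29, 51 with the same coordinates. Exons of 9 members overlap those of another gene of the table, in COL18A1 over 1401 bases, LAMA5 over 244, LAMB1 over 70 and COL9A3 over 45, with the other 5 given in the text. Read counts could not be recovered: 29.5% to 34.2% of low values lay within 0.02 of a whole multiple of the smallest step, from which depth was inferred.

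Members and lists were chosen with earlier results of these data known. Values in each library are given for called members with a mean of at least 1 FPKM and for the most abundant reported member of each group. Of each list of other genes, the 2 largest falls and the 2 largest rises among called genes of that level are named. 1 member that enters the counts is not reported here.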

Additional observations from a re-analysis of the deposited data

How the results depend on the processing

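The alternatives were a pseudocount of 0.1 FPKM, only genes with a mean of at least 1 FPKM, scaling to equal sums or by median ratios, quantile normalization, no variance trend, the replicate number as a block, and each library left out in turn. Leaving out 1 library gave 14 to 15 members lower, 9 to 12 higher, and 4971 to 5371 genes called over the whole table. The groups did not overlap for 35 to 36 members. Dropping a library can only narrow a group, so this count cannot fall below the 33 of all 6 libraries and is no check. With all 6 libraries, 16 members were lower and 9 higher with equal sums, 17 and 9 with median ratio scaling and 18 and 9 with quantile normalization. Over the whole table, 5965, 6051 and 6069 genes were called in these 3 settings, in the same order, against 6098 in the main fit. With the replicate block, 15 members were lower, 9 were higher and 5096 genes were called over the whole table, and the calls of LAMB1 (limma adjusted p = 0.0520), PLOD2 (0.0561) and SPARC (0.0928) were lost. Same-numbered libraries did not deviate together (correlations of -0.040, -0.021 and -0.108 over genes), so the numbers were not taken to pair them. Median ratio scaling gave COL27A1 a call (adjusted p = 0.0320), as did quantile normalization (0.0492). Direction turned, without a call, for LAMA3 under median ratio scaling (-0.01), for COL7A1 without replicate 2 of the mimics (0.01) or controls (0.03), for LAMA5 without replicate 3 of the mimics (-0.01) or controls (-0.02), and for NID1 without mimic replicate 1 (0.04) or 2 (0.00) or control replicate 2 (0.00). Over all libraries left out in turn, log2 fold changes ranged from -0.09 to 0.03 for COL7A1, from -0.02 to 0.12 for LAMA5 and from -0.08 to 0.04 for NID1. The cause was not tested. Among the 12 named genes of the other lists, 10 kept their call in every setting, and P3H4 and MFGE8 did not. Tests on counts (edgeR, DESeq2, and a filter on low counts) were not run because the table holds no counts.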

Other observations

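FKBP10, a chaperone of procollagen, IGFBP7, a secreted matrix-binding protein, and DAG1, the laminin receptor dystroglycan, are no part of the named genes and were picked out once their values were known. FKBP10 was at 1.48, 1.73 and 1.68 FPKM with miR-204-5p mimics and at 0.289, 0.423 and 0.355 FPKM with control mimics (log2 fold change 0.96, limma's adjusted p = 0.000144). IGFBP7 was at 196, 193 and 193 FPKM against 84.6, 86.7 and 86.7 FPKM (1.16, adjusted p = 1.25e-05). DAG1 was at 3.34, 53.8 and 4.49 FPKM against 76.6, 5.88 and 88.4 FPKM, which differ more within each group than between the groups, and it was not called (adjusted p = 0.339).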
